A study of Mus musculus with 9 samples.

Results

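The citrate cycle, the enzymes that let pyruvate enter it and the malate-aspartate shuttle were examined in ventricles that had lost the chromatin remodelling subunit Arid1a in cardiomyocytes. The 42 genes were chosen by name as the cycle enzymes, pyruvate dehydrogenase with its kinases and phosphatases, the enzymes and carriers that convert or move pyruvate, and the shuttle. They were 42 of 38293 genes listed, and all 42 were among the 15318 genes with enough reads to be tested. RNA sequencing had been run on ventricles of mice at postnatal day 7 (P7), in 5 controls of genotype Arid1a f/f, littermates that carried both floxed alleles and no Cre, and in 4 mutants of genotype αMHC-Cre;Arid1a f/f (Arid1a cKO). The αMHC promoter drives Cre in cardiomyocytes, whereas the RNA came from the whole ventricle, which also holds fibroblasts, endothelium and other cells without the deletion. Fewer cardiomyocytes and less RNA per cardiomyocyte therefore cannot be told apart for any level given here. The mouse lines were kept on a background that the study's methods spell C57B/6 J, and Xist levels placed females and males in both groups. The controls carry no Cre, so effects of Cre itself cannot be told apart from loss of Arid1a.

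The citrate cycle oxidises acetyl-CoA in the mitochondrial matrix and passes the electrons to the respiratory chain, and the heart depends on it for most of its ATP. Pyruvate enters as acetyl-CoA through the pyruvate dehydrogenase complex, which the kinases Pdk1 to Pdk4 switch off by phosphorylating its E1α subunit and the phosphatases Pdp1 and Pdp2 switch on again. The malate-aspartate shuttle carries cytosolic reducing equivalents into mitochondria with paired malate dehydrogenases, paired aspartate aminotransferases and 2 kinds of carrier. In the days after birth the mouse heart turns from glycolysis to oxidative metabolism.

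More genes of this pathway fell than rose in Arid1a cKO ventricles, by modest amounts. Of the 42 genes, 18 fell and 4 rose at an adjusted p under 0.05 in the quasi-likelihood test of edgeR, whereas 8.03% of all genes tested fell and 8.25% rose. The 18 that fell are 42.9% of the 42 and the 4 that rose are 9.52%. The median log2 fold change (cKO over control) was -0.15 over the 42 genes and 0.01 over all genes tested. Levels are given in CPM, the counts relative to the scaled total of the library. Summed over the 42 genes, the level was 19146 to 21054 CPM in the controls and 17358 to 17996 CPM in the cKO libraries, with means of 20212 ± 734 CPM (SD, n = 5) and 17574 ± 299.98 CPM (SD, n = 4). No cKO library reached the lowest control in that sum. All 4 cKO libraries were under all 5 controls for 18 genes, the same 18 that fell, against 8.58% of all genes tested. Pdk3 and Pdp1 were the 2 genes with every cKO library above every control library, against 8.16% of all genes tested. Only Me3 passed a 1.5-fold threshold together with the adjusted p, against 6.72% of all genes tested. Leaving out 1 library at a time kept 16 of the 18 decreases past the threshold in all 9 fits, and the exceptions were Dlst and Suclg1.

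**Figure D1:**
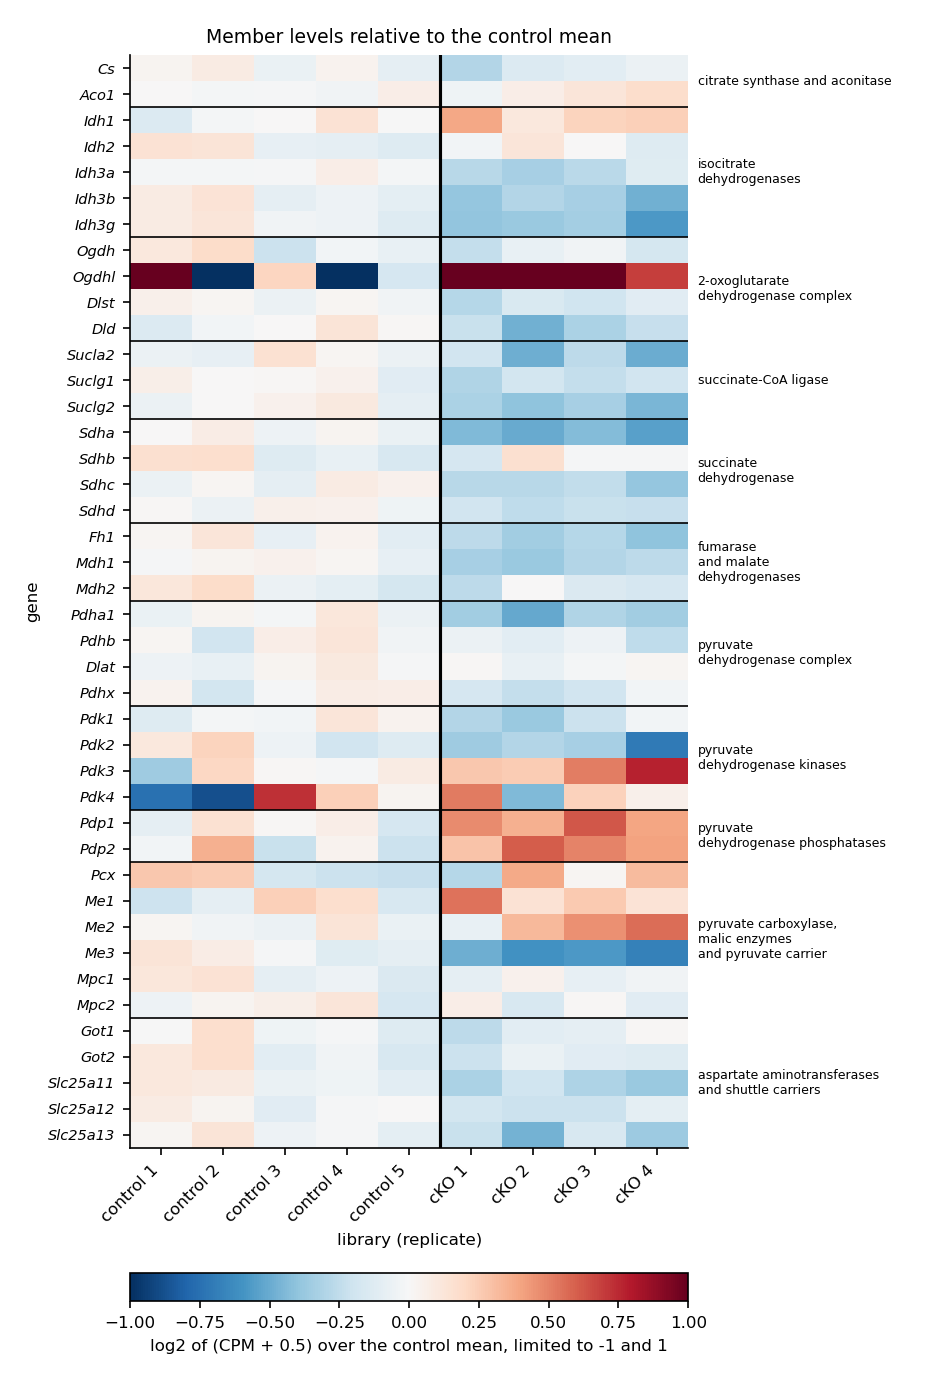
Level of each of the 42 genes (rows, by role) in each of the 9 libraries (columns), as the log2 ratio of CPM + 0.5 to its control mean, with blue lower, red higher and colours limited to -1 and 1. The cKO columns are blue for most enzymes of the cycle, red for Idh1, Pdk3, Pdp1 and Pdp2, and Ogdhl and Pdk4 differ widely among the controls.

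The decreases lay mostly in abundant genes. Of the 42 genes, 30 had a mean of at least 100 CPM, and 16 of these 30 (53.3%) fell and 0 rose in edgeR's test (0 also by DESeq2 and 0 at an unadjusted p under 0.05), against 15.7% falling and 8.92% rising of the 1794 genes this abundant. Among the 12 genes under that level 2 fell (16.7%), Me3 and Suclg2, and 4 rose (33.3%), Idh1, Pdk3, Pdp1 and Pdp2. Of all genes tested, at any level, 8.03% fell and 8.25% rose. Compared per length, as CPM over the exon length in kilobases (RPKM), the cytosolic malate dehydrogenase Mdh1 had the highest control level, at 756 ± 25.1 RPKM (SD, n = 5, as for the next values). Next in order came Idh2 at 598 ± 54.7 RPKM, Sdhd at 512 ± 18.2 RPKM, Sdha at 351 ± 14.2 RPKM and Ogdh at 345 ± 37.0 RPKM, of which Sdha and Ogdh did not differ beyond their spread. This order rests on the length of all annotated exons. With the length of the principal transcript, Mdh1 (915 RPKM) and Idh2 (887 RPKM) stayed first, Mdh2 moved from 321 to 784 RPKM and came next, and Sdhd (512 RPKM), Sdha (499 RPKM), Cs (498 RPKM) and Ogdh (456 RPKM) followed. At the other end stood Pdp2 at 0.714 ± 0.138 RPKM, pyruvate carboxylase (Pcx) at 1.28 ± 0.252 RPKM and Ogdhl at 1.88 ± 1.82 RPKM.

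Other measures also moved with the groups. Over 8 cardiomyocyte marker genes, 1 fell (Myl2, the ventricular myosin light chain) and 7 did not pass, and their summed level was 52501 to 60556 CPM in controls and 47049 to 51589 CPM in cKO. Of those 7, an unadjusted p under 0.05 in edgeR's test was held by Tnni3, Tnnt2 and Actn2. Their log2 fold changes were -0.31, -0.23 and 0.22. Of 5 fibroblast markers 3 rose (Col1a1, Col1a2 and Tcf21), with sums of 2536 to 3275 CPM in controls and 3406 to 4104 CPM in cKO. Pdgfra (means of 88.9 CPM in controls and 96.2 CPM in cKO) and Dcn (712 and 690 CPM) did not pass. None of the 4 endothelial, 4 mural, 4 macrophage or 4 erythroid markers passed in edgeR's test, and 2 of these 16 had an unadjusted p under 0.05. Adipocyte markers summed to at most 0.811 CPM and the skeletal muscle markers to at most 2.42 CPM in any library. Atrial markers summed to 162 to 253 CPM in controls and 901 to 2572 CPM in cKO, and none of the 4 was at 0. Most of the cKO sum was Nppa, which rose from a mean of 114 CPM in controls to 1721 CPM in cKO. Myl7 rose from a mean of 44.8 to 103 CPM. Sln (means of 5.72 CPM in controls and 2.43 CPM in cKO) and Myl4 (42.3 and 47.5 CPM) did not pass. The part of cell composition in the results below was not tested. Total counts per library ran from 31011055 to 40073801. Arid1a itself, counted over the whole gene, was 106 ± 5.44 CPM in cKO (SD, n = 4) against 139.8 ± 8.84 CPM in controls (SD, n = 5), and it fell by 23.9%, a log2 fold change of -0.39 (adjusted p = 0.00132, SE 0.06) in edgeR's test. The libraries also formed 2 sets by the level of the ribosomal protein gene copy Rps3a3, a split that the labels do not explain. The Rps3a3-low set, at up to 0.521 CPM, was made of cKO replicates 1 to 3 with control replicates 1 and 2. The Rps3a3-high set, at 99.7 to 112 CPM, was made of cKO replicate 4 with control replicates 3 to 5.

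At the entry of the cycle neither gene passed, whereas the NAD-dependent isocitrate dehydrogenase fell in every subunit. Citrate synthase (Cs), which joins acetyl-CoA to oxaloacetate, was at 1372 to 1542 CPM in controls and 1189 to 1399 CPM in cKO, with a log2 fold change of -0.15 (adjusted p = 0.158, SE 0.07) in edgeR's test. The cytosolic aconitase and iron regulatory protein Aco1 was at 66.6 to 71.6 CPM in controls and 66.2 to 77.2 CPM in cKO, with a log2 fold change of 0.08 (adjusted p = 0.41, SE 0.06). All 3 subunits of the NAD-dependent isocitrate dehydrogenase, which works in the mitochondrial matrix, fell. Idh3a, the catalytic subunit, stood at 649.7, 650.0, 651, 688 and 649.5 CPM across control replicates 1 to 5, against 544, 522, 546 and 606 CPM across cKO replicates 1 to 4. The highest cKO library, replicate 4, stayed under the lowest control, and Idh3a fell by 15.7%, a log2 fold change of -0.25 (adjusted p = 0.0136, SE 0.06). Idh3b stood at 597, 618, 529.8, 543 and 526 CPM across control replicates 1 to 5, against 429.5, 459, 447 and 404 CPM across cKO replicates 1 to 4. It fell by 22.8%, a log2 fold change of -0.37 (adjusted p = 0.0032, SE 0.07), with all 4 cKO libraries under the 5 controls. Idh3g (ENSMUSG00000002010, GRCm38 chrX:73778963-73786897, minus strand) stood at 454, 467, 419, 414 and 391.7 CPM across control replicates 1 to 5, against 326, 332, 339 and 288 CPM across cKO replicates 1 to 4. Idh3g had the largest change of the 3 subunits, a fall of 25.1% and a log2 fold change of -0.42 (adjusted p = 0.00197, SE 0.07), and cKO replicate 4 was the lowest of all libraries. Per length, the shares of the 3 subunits in their sum were 28.7 ± 1.67%, 36.3 ± 0.985% and 35.0 ± 0.868% in controls for Idh3a, Idh3b and Idh3g and 30.8 ± 2.69%, 35.7 ± 1.23% and 33.5 ± 1.63% in cKO (SD, n = 5 and 4).

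Of the NADP-dependent isocitrate dehydrogenases 1 rose and 1 did not pass. Idh2, the abundant mitochondrial enzyme, was at 1417 to 1711 CPM in controls and 1418 to 1687 CPM in cKO, overlapping fully, with a log2 fold change of -0.0035 (adjusted p = 0.983, SE 0.08) in edgeR's test. Idh1, its cytosolic counterpart and a source of cytosolic NADPH, stood at 58.1, 63.4, 64.4, 70.8 and 63.8 CPM across control replicates 1 to 5, against 84.2, 68.9, 74.9 and 75.6 CPM across cKO replicates 1 to 4. Control replicate 4 and cKO replicate 2 overlapped, and Idh1 rose by 18.3%, a log2 fold change of 0.24 (adjusted p = 0.0469, SE 0.08). That call was the weakest of the 4 increases together with Pdp2: it held in 2 of 9 fits with a library left out, those without control replicate 4 or cKO replicate 2, and its adjusted p reached 0.116 without cKO replicate 1. The ratio of Idh1 to Idh2 differed by 0.24 on the log2 scale, with an exact permutation p of 0.127 (two-sided, 126 splits) and 0.423 after adjustment over the 10 ratios tested.

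In the 2-oxoglutarate dehydrogenase complex, which yields succinyl-CoA, the shared and core components fell and the first enzyme did not pass. Dld, the dihydrolipoamide dehydrogenase that this complex shares with pyruvate dehydrogenase and the branched-chain complex, stood at 460.1, 497, 507, 553 and 509 CPM across control replicates 1 to 5, against 433, 362, 406 and 429.8 CPM across cKO replicates 1 to 4. The lowest level was in cKO replicate 2, all cKO libraries were below the controls, and Dld fell by 19.3% (log2 fold change -0.31, adjusted p = 0.0122, SE 0.07). Dlst, the succinyltransferase core, was at 627 to 675 CPM in controls and 535 to 604 CPM in cKO, with a log2 fold change of -0.19 (adjusted p = 0.0438, SE 0.06). Its groups did not overlap, yet it passed in only 1 of 9 fits with a library left out, the one without cKO replicate 4, and its adjusted p reached 0.106 without cKO replicate 3. Ogdh, the decarboxylating first enzyme, overlapped at 1619.8 to 2135 CPM in controls and 1599 to 1836 CPM in cKO and had a log2 fold change of -0.13 (adjusted p = 0.333, SE 0.08).

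Ogdhl, the gene related to Ogdh that is best known from brain, had the widest difference in the pathway and did not pass edgeR's test. It stood at 19.9, 1.82, 9.14, 1.26 and 6.89 CPM across control replicates 1 to 5, against 48.4, 39.8, 64.7 and 12.9 CPM across cKO replicates 1 to 4. The 3 highest libraries were cKO replicates 1 to 3, and cKO replicate 4 was below control replicate 1. Its log2 fold change was 2.404 (adjusted p = 0.102, SE 0.84). Within the Rps3a3-low libraries the highest control was 19.9 CPM against a lowest cKO of 39.8 CPM, and within the Rps3a3-high libraries the highest control was 9.14 CPM against 12.9 CPM in the single cKO library. By DESeq2 its adjusted p was 0.0212, and without control replicate 1 it was 0.0472 in edgeR with a log2 fold change of 3.11. Per length Ogdhl made up 0.545 ± 0.493% of Ogdh and Ogdhl together in controls and 3.03 ± 1.495% in cKO (SD, n = 5 and 4), so Ogdh remained the main form. The log2 ratio of Ogdhl to Ogdh differed by 2.90, with an exact permutation p of 0.0317 and 0.317 after adjustment over 10 ratios.

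Succinate-CoA ligase, the one step of the cycle that forms a nucleoside triphosphate directly, fell in all 3 subunits. Sucla2, the ATP-forming β subunit, stood at 480.0, 471, 555, 507 and 479.9 CPM across control replicates 1 to 5, against 436, 354, 416 and 353 CPM across cKO replicates 1 to 4. All 4 cKO libraries were below the controls, with replicates 2 and 4 lowest, and Sucla2 fell by 21.8% (log2 fold change -0.35, adjusted p = 0.0107, SE 0.08 in edgeR's test). Suclg2, the GTP-forming β subunit, stood at 93.6, 97.4, 100.2, 104 and 91.3 CPM across control replicates 1 to 5, against 78.2, 73.4, 77.1 and 70.6 CPM across cKO replicates 1 to 4. No cKO library reached the lowest control, and the fall was 23.1% (log2 fold change -0.38, adjusted p = 0.00132, SE 0.06). Suclg1, the α subunit common to both forms, ranged over 314 to 355 CPM in controls and 277 to 301 CPM in cKO without overlap, a log2 fold change of -0.23 (adjusted p = 0.018, SE 0.06). Without cKO replicate 3 its adjusted p was 0.0547. A difference between the 2 β subunits was not shown, since the log2 ratio of Sucla2 to Suclg2 was 2.57 ± 0.0803 in controls and 2.59 ± 0.0961 in cKO (exact permutation p = 0.738, adjusted p = 0.942 over 10 ratios), and Sucla2 supplied 85.6 ± 0.684% of β subunit transcripts per length in controls and 85.7 ± 0.813% in cKO.

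Succinate dehydrogenase is both a cycle enzyme and complex II of the respiratory chain, and 3 of its 4 subunits fell. Sdha (ENSMUSG00000021577, GRCm38 chr13:74322254-74350280, minus strand), the flavoprotein that oxidises succinate, stood at 1454, 1526, 1399.9, 1479.6 and 1382 CPM across control replicates 1 to 5, against 1068, 1022, 1069.8 and 994 CPM across cKO replicates 1 to 4. The groups were far apart, with the highest cKO library at 1069.8 CPM and the lowest control at 1382 CPM, and Sdha fell by 28.3%, a log2 fold change of -0.48 (adjusted p = 0.000152, SE 0.06) in edgeR's test. Of the 42 genes it had the lowest adjusted p. Sdhc, one of the membrane anchors that form the ubiquinone site, stood at 404, 427, 395, 447 and 434 CPM across control replicates 1 to 5, against 347, 348, 356 and 322 CPM across cKO replicates 1 to 4. Each cKO library was below each control, and Sdhc fell by 18.5% (log2 fold change -0.30, adjusted p = 0.00508, SE 0.06). Sdhd (ENSMUSG00000000171, GRCm38 chr9:50596357-50603812, minus strand), the other anchor, stood at 634, 603, 654, 648 and 611 CPM across control replicates 1 to 5, against 552, 527, 539 and 536 CPM across cKO replicates 1 to 4. Again the groups were apart, though less so, and it fell by 14.6% (log2 fold change -0.23, adjusted p = 0.0117, SE 0.05). Sdhb, the iron-sulfur subunit that hands electrons from Sdha to ubiquinone, stood at 519.9, 522, 425, 442 and 415 CPM across control replicates 1 to 5, against 414, 521, 460.4 and 460.1 CPM across cKO replicates 1 to 4. Its groups overlapped fully, with control replicates 1 and 2 and cKO replicate 2 the highest, and the log2 fold change was -0.004 (adjusted p = 0.983, SE 0.09). Whether the change in Sdhb differed from that in the other 3 subunits was not tested. Of 4 assembly factors of the enzyme (Sdhaf1 to Sdhaf4), 0 passed in edgeR's test and 0 had an unadjusted p under 0.05.

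Promoter sequence was searched for 2 motifs in all members with a window, whether or not they passed the test. RefSeq promoter windows (GRCm38.p6, 250 bases before to 50 after the annotated start) were found for 38 of the 42 genes. The palindrome bound by NRF1, a factor known to act on nuclear genes of mitochondria, was searched on both strands as GCGCANGCGC, and the half-site bound by estrogen-related receptors as TNAAGGTCA. The NRF1 letters occurred in 4 of the 38 windows (10.5%; Dld, Sdha, Sdhd and Sucla2), against 5.19% of 27025 genes in the table. The receptor letters occurred in 1 of 38 (2.63%; Sdhd, 37 bases after the start), against 1.43% of genes. Windows of the 42 genes had a median GC content of 61.67% and a median of 21 CpG sites over 49 windows, against 52.67% and 7 over all 32851 windows, and the part of base composition in these shares was not tested. A match to these letters is a description and does not show that the factor binds. The 250 bases before the RefSeq start are printed for 2 succinate dehydrogenase subunits with the NRF1 letters in capitals, and for Idh3g and Pdha1, both on the X chromosome and both lower in cKO, whose windows did not hold the letters of either motif. All 4 genes lie on the minus strand, and the sequences are written 5′ to 3′ along the gene, for Sdha from chr13:74350241-74350490, for Sdhd from chr9:50603850-50604099, for Idh3g from chrX:73786898-73787147 and for Pdha1 from chrX:160138431-160138680. The Sdha matches begin 98, 55 and 10 bases before the start and the Sdhd match 79 bases before it.
Sdha: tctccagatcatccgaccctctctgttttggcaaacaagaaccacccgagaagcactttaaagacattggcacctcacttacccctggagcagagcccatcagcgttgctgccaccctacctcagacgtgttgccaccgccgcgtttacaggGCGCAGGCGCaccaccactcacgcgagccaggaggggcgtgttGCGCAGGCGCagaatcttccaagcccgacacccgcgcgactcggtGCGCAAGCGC
Sdhd: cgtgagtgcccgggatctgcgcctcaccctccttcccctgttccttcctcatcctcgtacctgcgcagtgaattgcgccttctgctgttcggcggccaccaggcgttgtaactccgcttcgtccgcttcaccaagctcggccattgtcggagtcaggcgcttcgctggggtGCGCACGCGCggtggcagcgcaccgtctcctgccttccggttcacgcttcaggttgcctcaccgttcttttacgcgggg
Idh3g: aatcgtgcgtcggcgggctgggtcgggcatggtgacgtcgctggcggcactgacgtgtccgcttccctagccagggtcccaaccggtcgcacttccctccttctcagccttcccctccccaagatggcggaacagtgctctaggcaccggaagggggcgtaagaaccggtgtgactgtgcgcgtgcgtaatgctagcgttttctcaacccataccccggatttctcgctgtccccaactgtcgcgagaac
Pdha1: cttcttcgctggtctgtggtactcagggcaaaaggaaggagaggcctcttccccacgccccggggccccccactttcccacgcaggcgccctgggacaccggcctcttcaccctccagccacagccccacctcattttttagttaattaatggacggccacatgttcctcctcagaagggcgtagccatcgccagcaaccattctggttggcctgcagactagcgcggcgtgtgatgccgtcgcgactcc

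The last steps of the cycle fell in part. Fh1, the fumarase that hydrates fumarate to malate, stood at 489.6, 528, 457, 497 and 451 CPM across control replicates 1 to 5, against 403, 381, 398 and 365 CPM across cKO replicates 1 to 4. No cKO library reached a control, and Fh1 fell by 20.1% (log2 fold change -0.32, adjusted p = 0.00456, SE 0.06 in edgeR's test). Mdh1, the cytosolic malate dehydrogenase that also serves the shuttle, stood at 1926, 1977, 2003, 1965 and 1837 CPM across control replicates 1 to 5, against 1541, 1502, 1581 and 1620.3 CPM across cKO replicates 1 to 4. Its fall of 19.6% (log2 fold change -0.31, adjusted p = 0.00226, SE 0.05) was the largest in absolute level after that of Sdha, and the groups did not overlap. Mdh2, the mitochondrial enzyme that regenerates oxaloacetate, was at 1012 to 1299 CPM in controls and 952 to 1143 CPM in cKO, overlapping, with a log2 fold change of -0.14 (adjusted p = 0.294, SE 0.08). The log2 ratio of Mdh1 to Mdh2 differed by -0.18 between cKO and control (exact permutation p = 0.111, adjusted p = 0.423), so a difference between the 2 enzymes was not shown.

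**Figure D2:**
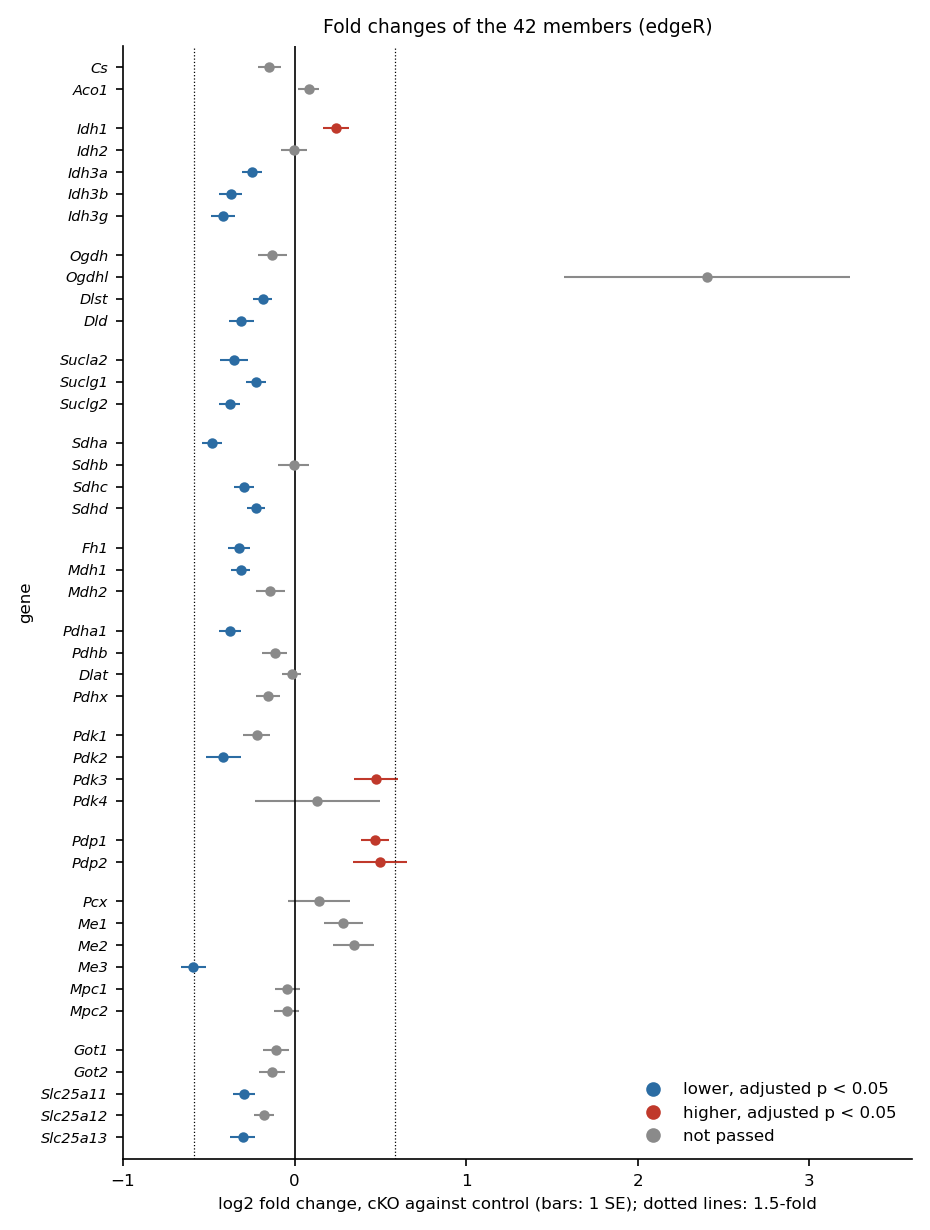
Log2 fold change of each of the 42 genes (cKO over control, edgeR) with 1 SE as bars, ordered by role, blue for genes that fell, red for genes that rose and grey for those that did not pass; dotted lines mark 1.5-fold. Most cycle enzymes lie between 0 and -0.5, and Ogdhl stands at 2.404 with a wide SE.

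Pyruvate dehydrogenase is covered here by 4 genes besides the shared Dld, which fell as given above, and 1 of these 4 fell. Pdha1 (ENSMUSG00000031299, GRCm38 chrX:160122209-160138413, minus strand), the E1α subunit on which the kinases act, stood at 1033, 1104, 1070.0, 1176 and 1039.8 CPM across control replicates 1 to 5, against 855, 762, 879 and 851 CPM across cKO replicates 1 to 4. Each of the cKO libraries was below each control, with replicate 2 lowest, and Pdha1 fell by 22.9%, a log2 fold change of -0.37 (adjusted p = 0.00208, SE 0.06) in edgeR's test. Its partner Pdhb, the E1β subunit, was at 534 to 662 CPM in controls and 509 to 588 CPM in cKO with a log2 fold change of -0.12 (adjusted p = 0.318, SE 0.07). Dlat, the acetyltransferase core, was at 341 to 384 CPM in controls and 341 to 363 CPM in cKO with a log2 fold change of -0.02 (adjusted p = 0.875, SE 0.06). Pdhx, which anchors Dld in the complex, was at 113 to 136 CPM in controls and 109 to 126 CPM in cKO with a log2 fold change of -0.15 (adjusted p = 0.154, SE 0.07). The 3 latter genes overlapped between groups. Exons of Map3k15 on the opposite strand overlap 16.1% of the exon bases of Pdha1, and Map3k15 held a mean of 75.2 counts per library against 33597 for Pdha1. Exons of 8 of the 42 genes overlap exons of a gene on the opposite strand, and the part of such reads was not tested.

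The regulators of the complex moved in both directions. Pdk2, a kinase present in most tissues, stood at 289, 313, 258, 235 and 245 CPM across control replicates 1 to 5, against 209, 218, 213 and 164 CPM across cKO replicates 1 to 4. The cKO libraries were all below the controls, replicate 4 lowest, and Pdk2 fell by 25.0% (log2 fold change -0.41, adjusted p = 0.0174, SE 0.10 in edgeR's test). Pdk2 was also the one gene of the 42 (2.38%, against 4.81% of all genes tested) whose level differed between the Rps3a3 sets in edgeR's test with set as a term, by -0.33 in the high against the low set (adjusted p = 0.0114), and its change was -0.49 among Rps3a3-low libraries and -0.59 among Rps3a3-high ones. Pdk3, encoded on the X chromosome, stood at 19.2, 28.7, 24.9, 24.6 and 26.3 CPM across control replicates 1 to 5, against 29.96, 29.5, 35.4 and 42.5 CPM across cKO replicates 1 to 4. Every cKO library exceeded every control, by little for replicates 1 and 2, and Pdk3 rose by 39.0% (log2 fold change 0.48, adjusted p = 0.0258, SE 0.13). It passed in 5 of 9 fits with a library left out and did not without control replicate 3 or 4 or cKO replicate 3 or 4, with an adjusted p of up to 0.0822. Pdk1, a kinase known as a hypoxia target, stood at 171, 185, 184, 204 and 192 CPM across control replicates 1 to 5, against 153, 144, 162 and 184 CPM across cKO replicates 1 to 4. Control replicate 1 and cKO replicate 4 overlapped, and the log2 fold change was -0.22 (adjusted p = 0.0737, SE 0.08).

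Pdk4, the kinase induced by fasting and fatty acids, was the kinase whose levels differed most among controls. It stood at 202, 184, 562, 401 and 345 CPM across control replicates 1 to 5, against 486, 249.96, 398 and 351 CPM across cKO replicates 1 to 4. Control replicates 1 and 2 were the lowest of the 9 libraries and control replicate 3 the highest, and the log2 fold change over all libraries was 0.13 (adjusted p = 0.845, SE 0.36) in edgeR's test. The 2 low controls were the 2 controls of the Rps3a3-low set. The change was 0.97 among Rps3a3-low libraries and -0.31 among Rps3a3-high ones (2 control and 3 cKO libraries in the former, 3 and 1 in the latter), so the sign differed between comparisons that share neither controls nor cKO libraries. Without control replicate 1, control replicate 2 or cKO replicate 1 the overall value was -0.01, -0.02 and -0.02. Per length, Pdk2 and Pdk4 together held most kinase transcripts. Pdk4 was 43.2 ± 12.7% of them in controls and 51.3 ± 7.03% in cKO, Pdk2 40.8 ± 10.7% and 31.7 ± 6.18%, Pdk1 11.4 ± 1.64% and 10.3 ± 1.71%, and Pdk3 4.58 ± 0.928% and 6.70 ± 1.52% (SD, n = 5 and 4). With principal transcript lengths Pdk2 was the larger in controls, at 46.1 ± 10.2% against 35.6 ± 11.7% for Pdk4. The log2 ratios of Pdk4 to Pdk2 and of Pdk1 to Pdk2 differed by 0.63 and 0.19 between cKO and control, with exact permutation p values of 0.222 and 0.381 and adjusted values of 0.444 and 0.635 over 10 ratios.

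**Figure D3:**
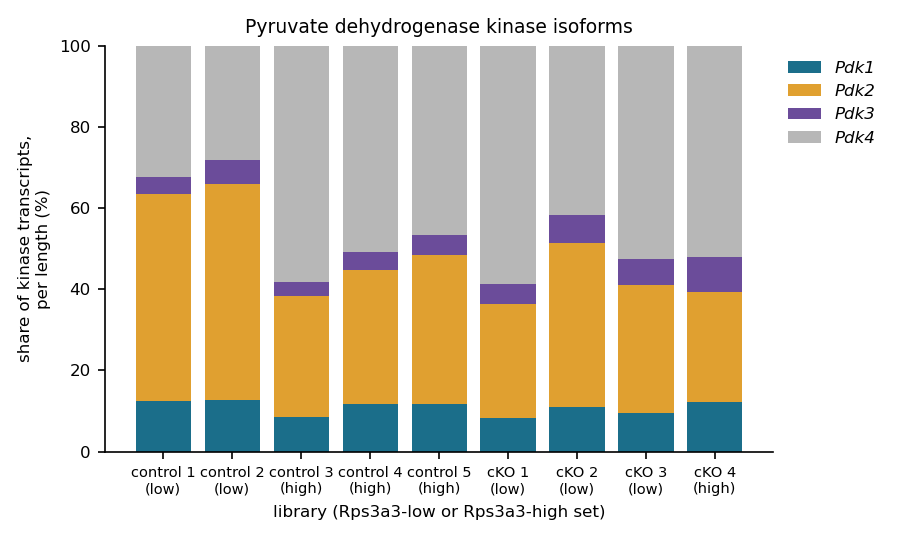
Share of each of the 4 pyruvate dehydrogenase kinases in their summed transcripts per length (%), stacked for each library, with the Rps3a3 set in brackets. Pdk4 takes 28.1% and 32.3% in the 2 Rps3a3-low controls and 41.8% to 58.7% in the other 7 libraries.

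Both phosphatases that reactivate the complex rose. Pdp1, the calcium-stimulated form known from muscle and heart, stood at 56.5, 66.6, 60.6, 62.9 and 53.5 CPM across control replicates 1 to 5, against 83.7, 76.8, 92.6 and 79.0 CPM across cKO replicates 1 to 4. All 4 cKO libraries were above the 5 controls, and Pdp1 rose by 38.3% (log2 fold change 0.47, adjusted p = 0.00204, SE 0.08 in edgeR's test), past the threshold in all 9 fits with a library left out. Pdp2, a scarce gene here, stood at 3.97, 5.33, 3.41, 4.18 and 3.43 CPM across control replicates 1 to 5, against 5.07, 6.44, 5.94 and 5.52 CPM across cKO replicates 1 to 4. Control replicate 2 lay above cKO replicate 1, and Pdp2 rose by 41.3% (log2 fold change 0.50, adjusted p = 0.047, SE 0.16). Pdp2 passed in 2 of 9 fits with a library left out, those without control replicate 2 or cKO replicate 1, and its adjusted p reached 0.129 without cKO replicate 2. Pdp1 supplied 94.9 ± 0.620% of phosphatase transcripts per length in controls and 94.8 ± 0.725% in cKO. Pdpr, the regulator of the phosphatase, was at 37.1 to 54.8 CPM in controls and 40.4 to 47.8 CPM in cKO, and it was one of the other pathway genes that did not pass.

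Of the 6 genes for pyruvate carboxylase, the malic enzymes and the pyruvate carrier, Me3 alone passed. Me3 (ENSMUSG00000030621, GRCm38 chr7:89632392-89854359, plus strand), the mitochondrial NADP-dependent malic enzyme, stood at 64.2, 62.0, 58.2, 54.0 and 55.2 CPM across control replicates 1 to 5, against 41.7, 38.3, 39.4 and 36.7 CPM across cKO replicates 1 to 4. The lowest control was 54.0 CPM and the highest cKO library 41.7 CPM, and Me3 fell by 33.6%, a log2 fold change of -0.59 (adjusted p = 0.000205, SE 0.07) in edgeR's test. This was 1.51-fold, the largest decrease of the 42 genes, and it came under 1.5-fold, at 1.47 to 1.497-fold, in 4 of 9 fits with a library left out, those without control replicate 1 or 2 or cKO replicate 2 or 4, while staying past the adjusted p in all 9. Me1, the cytosolic form, was at 52.1 to 71.2 CPM in controls and 66.5 to 88.2 CPM in cKO with a log2 fold change of 0.28 (adjusted p = 0.117, SE 0.11), and Me2, the mitochondrial NAD-dependent form, at 13.8 to 15.9 CPM in controls and 13.7 to 21.6 CPM in cKO with 0.35 (adjusted p = 0.0727, SE 0.12). Of the 9 fits with a library left out, Me2 passed in the one without cKO replicate 1, the library in which it was lowest (adjusted p = 0.00617). It also passed by DESeq2 (adjusted p = 0.0413) and with library set as a term in edgeR (adjusted p = 0.0417). Per length, the share of Me3 among the 3 malic enzymes was 18.7 ± 2.66% in controls and 11.01 ± 0.544% in cKO, and the highest cKO share, 11.6%, was below the lowest control share, 15.7%. With principal transcript lengths, a choice made after the data had been seen, the share of Me3 was 35.6 ± 3.72% in controls and 22.9 ± 0.682% in cKO, again without overlap, so the size of the share depends on the length used. Pcx, which carboxylates pyruvate to oxaloacetate, was at 5.11 to 7.43 CPM in controls and 4.88 to 8.03 CPM in cKO with a log2 fold change of 0.14 (adjusted p = 0.644, SE 0.18), and its change was -0.21 among Rps3a3-low libraries and 0.56 among Rps3a3-high ones. The mitochondrial pyruvate carrier is a dimer of Mpc1 and Mpc2. Mpc1 was at 52.6 to 64.1 CPM in controls and 54.4 to 59.8 CPM in cKO (log2 fold change -0.04, adjusted p = 0.751, SE 0.07) and Mpc2 at 172 to 211 CPM in controls and 173 to 203 CPM in cKO (log2 fold change -0.05, adjusted p = 0.713, SE 0.07), both overlapping.

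**Figure D4:**
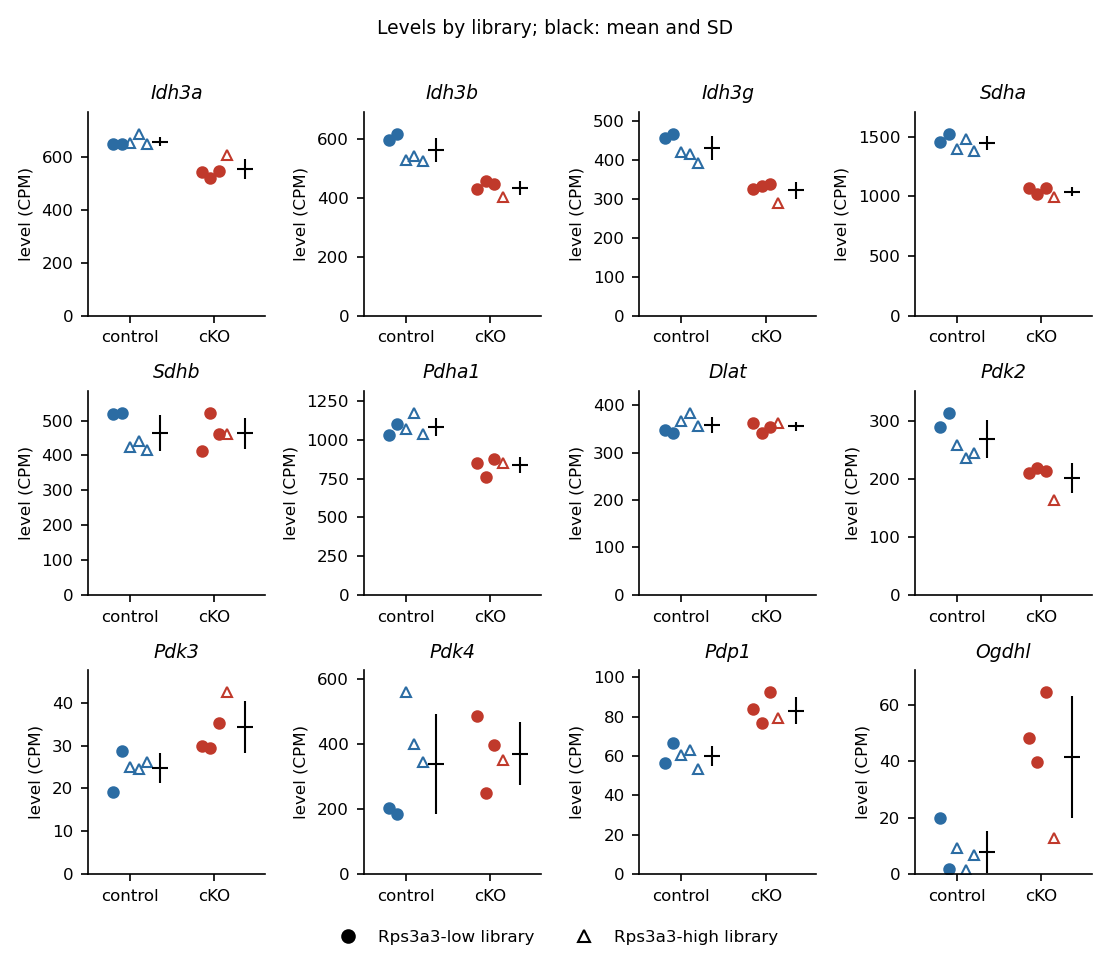
Level (CPM, axes from 0) of 12 genes in each library, controls in blue and cKO in red, filled circles for Rps3a3-low and open triangles for Rps3a3-high libraries, with the group mean and SD in black. The groups are apart for the 3 Idh3 subunits, Sdha, Pdha1, Pdk2, Pdk3 and Pdp1 and overlap for Sdhb, Dlat, Pdk4 and Ogdhl.

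In the malate-aspartate shuttle 2 of the 5 carriers and aminotransferases fell, beside Mdh1, against 8.03% of all genes tested. All 5 log2 fold changes were below 0, as were those of 7423 of the 15318 genes tested. Slc25a11, the carrier that exchanges 2-oxoglutarate for malate, stood at 364, 362, 325, 330.3 and 315 CPM across control replicates 1 to 5, against 273, 296, 275 and 263 CPM across cKO replicates 1 to 4. No cKO library reached the lowest control, and Slc25a11 fell by 18.5% (log2 fold change -0.30, adjusted p = 0.0086, SE 0.06 in edgeR's test). Exons of Rnf167 on the other strand overlap 8.92% of its exon bases, and Rnf167 held a mean of 1774 counts against 10761 for Slc25a11. Slc25a13 (citrin), one of the aspartate-glutamate carriers, stood at 123, 132, 117, 120.0 and 113 CPM across control replicates 1 to 5, against 104, 87.1, 108 and 94.0 CPM across cKO replicates 1 to 4. The groups did not overlap, with cKO replicate 2 lowest, and Slc25a13 fell by 18.9% (log2 fold change -0.30, adjusted p = 0.0156, SE 0.07). The other aspartate-glutamate carrier, Slc25a12 (aralar), was at 183 to 210.2 CPM in controls and 171 to 185 CPM in cKO with a log2 fold change of -0.18 (adjusted p = 0.0556, SE 0.06), short of the threshold. The log2 ratio of Slc25a12 to Slc25a13 differed by 0.13 (exact permutation p = 0.183, adjusted p = 0.444), so the carriers were not shown to differ. Got1, the cytosolic aspartate aminotransferase, was at 343 to 421 CPM in controls and 313 to 377 CPM in cKO (log2 fold change -0.11, adjusted p = 0.355, SE 0.07), and Got2, the mitochondrial one, at 375 to 472 CPM in controls and 362 to 401 CPM in cKO (log2 fold change -0.13, adjusted p = 0.277, SE 0.08).

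Across roles, 13 of the 21 cycle enzymes fell and 1 rose, with a median log2 fold change of -0.23 in edgeR's fit, beside 8.03% of all genes tested that fell and 8.25% that rose. Of the 10 genes for pyruvate dehydrogenase, its kinases and phosphatases, 2 fell and 3 rose, with a median of -0.07. Dld, which pyruvate dehydrogenase also uses and which fell, is not among these 10 and was counted with the cycle enzymes. For the 5 shuttle carriers and aminotransferases the median was -0.18. The summed level of the 21 cycle enzymes was 14457 to 16187 CPM in controls and 12844 to 13477 CPM in cKO. Of the 10 ratios between paired genes, 0 passed an adjusted p of 0.05 in the exact permutation test, and 1 had an unadjusted p under 0.05, that of Ogdhl to Ogdh. Within the Rps3a3-low libraries the median over the 42 genes was -0.24, and within the Rps3a3-high libraries it was -0.08. An interaction of sex with genotype passed for 0 of the 42 genes, 0 also at an unadjusted p under 0.05, against 0.00653% of all genes tested (edgeR, sexes told apart by Xist, 2 animals of each sex in cKO).

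**Figure D5:**
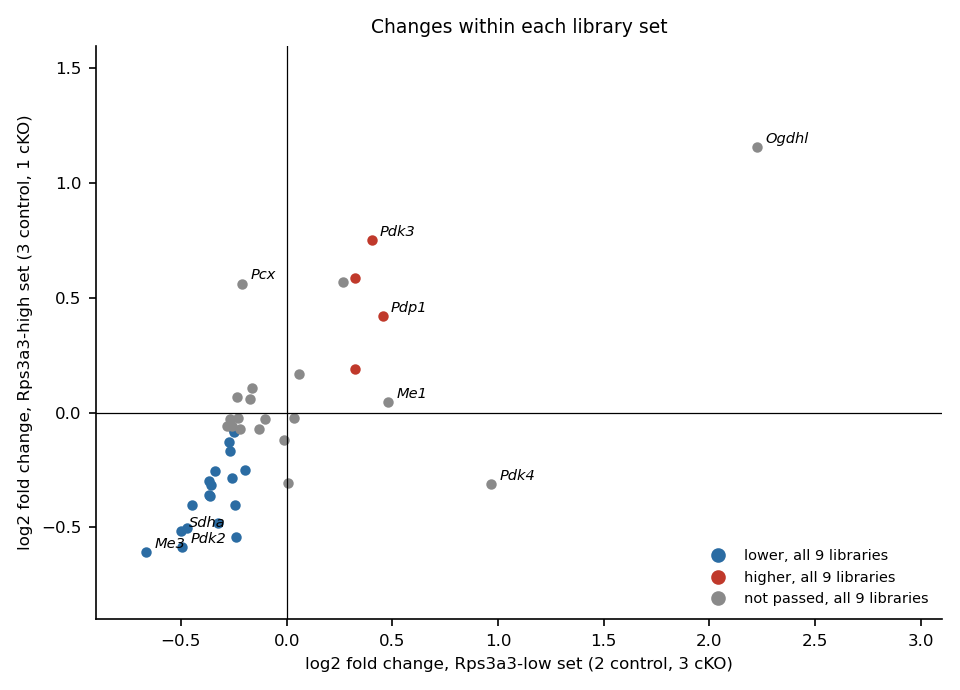
Log2 fold change (cKO over control) of each of the 42 genes within the Rps3a3-low libraries (2 control, 3 cKO; horizontal) and within the Rps3a3-high libraries (3 control, 1 cKO; vertical), coloured by the result over all 9 libraries. For the 18 genes that fell and for Pdk3 and Pdp1 the groups do not overlap over the 9 libraries, which fixes their sign in both sets, and 7 genes that did not pass change sign, with the widest gaps for Pdk4 (0.97 and -0.31) and Pcx (-0.21 and 0.56) and the others Sdhb, Got1, Mpc1, Pdhb and Dlat.

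Other genes of the same chemistry were mixed. Of 29 further genes for lipoylation, succinate dehydrogenase assembly, branched-chain and propionyl-CoA breakdown, glutamate and ketone entry, carriers, the glycerol phosphate shuttle, lactate dehydrogenase, the phosphatase regulator Pdpr and the cytosolic citrate lyase Acly, 6 fell and 3 rose in edgeR's test, with a median log2 fold change of -0.07, against 8.03% falling and 8.25% rising of all genes tested. Those also past 1.5-fold were 2, against 6.72% of all genes tested. The numbers that rose and that passed 1.5-fold were near these shares. Ppm1k, the phosphatase that activates the branched-chain 2-oxoacid dehydrogenase, stood at 34.2, 41.2, 46.1, 59.5 and 55.0 CPM across control replicates 1 to 5, against 28.7, 19.3, 21.8 and 17.7 CPM across cKO replicates 1 to 4. The cKO libraries were all lower than the controls, and Ppm1k fell by 53.7% (log2 fold change -1.11, adjusted p = 0.002, SE 0.18), in all 9 fits with a library left out. Slc25a10, the mitochondrial dicarboxylate carrier, stood at 22.3, 18.2, 15.9, 14.8 and 13.8 CPM across control replicates 1 to 5, against 20.6, 36.8, 23.6 and 23.1 CPM across cKO replicates 1 to 4. Control replicate 1 lay above cKO replicate 1, and Slc25a10 rose by 53.0% (log2 fold change 0.61, adjusted p = 0.0417, SE 0.18), but of 9 fits with a library left out it passed in 2, those without control replicate 1 or cKO replicate 1, and its adjusted p reached 0.0986 without cKO replicate 2.

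The remaining 7 that passed, under 1.5-fold, are named here after their values were seen. The 5 that fell were Ldha, the lactate dehydrogenase subunit of glycolytic tissue (-0.57, adjusted p = 0.00383, SE 0.11), Bckdhb of the branched-chain complex (-0.48, adjusted p = 0.00574, SE 0.10), the glycerol phosphate dehydrogenase homologue Gpd1l (-0.46, adjusted p = 0.000124, SE 0.05), the lipoic acid synthase Lias (-0.35, adjusted p = 0.00371, SE 0.07) and the propionyl-CoA carboxylase subunit Pccb (-0.28, adjusted p = 0.00484, SE 0.06), each given as log2 fold change by edgeR. The 2 that rose were Oxct1, which activates ketone bodies for entry into the cycle (0.53, adjusted p = 0.00396, SE 0.10), and Gpd1, the cytosolic glycerol phosphate dehydrogenase (0.45, adjusted p = 0.0182, SE 0.11). The call for Gpd1 was lost if cKO replicate 2 or control replicate 5 was left out, in the latter case at an adjusted p of 0.0535. Oxct1 stood at 446, 439, 376, 460.4 and 368 CPM across control replicates 1 to 5, against 496, 579.6, 645 and 687 CPM across cKO replicates 1 to 4, with every cKO library above the controls. Ldha stood at 736, 741, 655, 705 and 671 CPM across control replicates 1 to 5, against 372, 503, 433 and 579 CPM across cKO replicates 1 to 4, with every cKO library below the controls.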

How the data were processed

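Gene counts had been deposited by the authors as 1 table of raw counts per gene for 9 libraries (stranded poly(A) kit, single-end reads, mm10), with 0 other sample columns. The submitters' processing notes name STAR 2.4.2a and HTSeq 0.6.1; the strand setting of the counting is not given in the sources used here. Symbols and coordinates came from GENCODE M21 (GRCm38), which holds 36429 of the 38293 identifiers and 99.8% of the counts. All 5 labelled controls were used, although the study's texts differ in that number.

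Genes were kept by filterByExpr (minimum count 10), scaled by TMM and tested with edgeR 4.0.16 in R 4.3.3 by the robust quasi-likelihood F test with genotype as the only term, two-sided, with Benjamini-Hochberg adjustment over all 15318 genes. Each SE was the size of the log2 fold change over the square root of F. Called genes also exceeded 1.5-fold. Ratios were compared on log2(RPKM + 0.05), RPKM using all annotated exon bases, by exact permutation over 126 splits. Scripts were tested on simulated counts. Alternatives were DESeq2 1.42.0, RLE and upper-quartile scaling, no filter, replicate block (without control replicate 5), library set, sex as a term and leaving out each library. Replicates were separate mice, whose number limits the precision.

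The 42 genes, the other lists and the tests were chosen with earlier results of these data known. Levels in every library are given for the 20 largest changes that passed and the 4 kinases, and other pathway genes are named where called. Levels for Sdhb, Ogdhl, Ldha and Oxct1 were added after their values were seen.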

Additional observations from a re-analysis of the deposited data

Results flagged for a closer look

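Among 86 groups of libraries examined for a single library far from the rest of its group, 2 stood out, and chance alone marks about 1 in 20 groups. Idh3a was at 688 CPM in control replicate 4, whereas the other 4 controls lay between 649.5 and 651 CPM. Pdk2 was at 164 CPM in cKO replicate 4, whereas the other 3 cKO libraries lay between 209 and 218 CPM. Both genes fell in cKO in edgeR's test, and both passed in all 9 fits that left out 1 library each.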

How the results depend on the processing

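Of the 22 genes that passed, 22 also passed with DESeq2 (26 in all, with Ogdhl, Pdk1, Me2 and Slc25a12 added), 22 with RLE scaling, 21 with upper-quartile scaling, 19 without the count filter, 19 with sex as a term and 21 with library set as a term. With libraries left out in turn, 0 to 1 genes passed both the adjusted p and 1.5-fold (Ogdhl in place of Me3 without control replicate 1, Pdp2 without control replicate 2, and 0 without cKO replicate 2 or 4), and 1 to 4 rose at the adjusted p. Both thresholds were passed by 2 genes with DESeq2 (Me3 and Ogdhl) and by 0 with upper-quartile scaling. Increases numbered 2 without the filter, with sex as a term and with the replicate block, which also leaves out control replicate 5. In the Rps3a3-low libraries alone (2 control, 3 cKO) 9 genes fell and 0 rose (5 at an unadjusted p under 0.05), the median was -0.24 and Arid1a changed by -0.33 (adjusted p = 0.0822 in edgeR). Fewer samples were tested there, and 849 of all 15599 genes tested passed in either direction. Signs turned only in genes that did not pass or near-zero ratios, and the cause was not tested. Idh2 and Sdhb were both at 0.011 with upper-quartile scaling, Dlat at 0.012 with library set as a term, and Pdhb at 0.0071, Dlat at 0.033 and Pcx at -0.21 in the Rps3a3-low libraries. Leaving out 1 library gave -0.049 to 0.035 for Idh2, -0.065 to 0.047 for Sdhb, -0.024 to 0.39 for Pdk4 and -0.034 to 0.0086 for Dlat. It gave log2 ratios of -0.024 to 0.039 for Got1 to Got2, -0.016 to 0.054 for Sucla2 to Suclg2, -0.057 to 0.063 for Mpc1 to Mpc2 and -0.077 to 0.074 for Pdp1 to Pdp2. Without length, Pdp1 to Pdp2 was at 0.00185. Permuted within the library sets, the Ogdhl to Ogdh ratio, 2.90, had an exact permutation p of 0.025, unadjusted and the smallest that 40 splits allow.

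Replicate numbers were not shown to pair the samples. Deviations of same-numbered control and cKO libraries correlated at 0.011 to 0.232 and those of other pairs at -0.399 to 0.427, and 0 of 4 cKO libraries correlated best with their own number. The best pair, control replicate 2 with cKO replicate 3 (0.427), shared the Rps3a3-low set and a high Xist level. The check does not separate library set and sex from litter, so it cannot decide on pairing by litter. The replicate block, fitted without control replicate 5, which has no cKO library of its number, left 19 genes past the threshold, 17 lower and 2 higher. Leaving out control replicate 5 with no block also left 19 past the threshold.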
